A study of Rattus norvegicus with 9 samples.

Results

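The 9 genes described here are those commonly used to mark satellite glial cells: Fabp7, Glul, Gja1, Apoe, Slc1a3, Gfap, S100b, Cdh19 and Panx1. They were chosen by symbol, though with earlier results of these data known. They are 9 of the 20413 genes listed in an RNA-Seq table of rat dorsal root ganglia (DRGs). All 9 were above 0 in every library, and all 9 passed the filter on low values that 17187 genes passed. The libraries came from the right, ipsilateral L4-6 DRGs of young adult male Sprague Dawley rats that were perfused with saline and collected on day 10, with 3 libraries in each of 3 groups. In the chronic post-ischemia pain (CPIP) group, a model of complex regional pain syndrome, a tight O-ring closed off the blood supply of the right hind paw under anesthesia and was then cut to let blood return. Sham rats, labelled as control, went through anesthesia too, but their ring had been opened beforehand and left the circulation intact. In the CPIP+EA group the same injury was followed by electroacupuncture (EA), a weak current passed through needles at the Zusanli and Kunlun points of both hind limbs, once daily for 10 days. No group received EA without CPIP, and the study's methods give 3 rats a group without saying that each library is 1 rat, so the p-values measure the spread between these libraries.

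Satellite glial cells form a thin sheath around the cell body of each sensory neuron in the ganglion. They take up glutamate and potassium, exchange small molecules through gap junctions, release and sense ATP, and supply lipids, and after nerve injury they are known to become reactive, which is often read from GFAP. Several of their genes are also used by Schwann cells or neurons of the same ganglion. In bulk tissue, fewer cells of a type and less RNA per cell cannot be told apart.

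Values are FPKM, the fragments of a gene scaled to its length and to the mapped fragments of the library, so that levels of different genes can be set side by side per length. Fold changes were taken after adding 0.5 FPKM to each value, so they are too small for genes of low level. Groups were compared with limma, which fits a linear model to each gene and shares information on the spread across genes. A gene was called when its limma p, Benjamini-Hochberg adjusted across every gene tested, was under 0.01 and it differed at least 1.5-fold in either direction.

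Libraries that stood apart are given first. Mean correlations with the other libraries across genes, as Pearson r on log2(FPKM + 0.5), were close together. The lowest, 0.981 against 0.984 to 0.987 elsewhere, was that of CPIP+EA replicate 3. The summed FPKM of 8 neutrophil and marrow genes was 629 in it and between 33.98 and 265 in the other 8 libraries. The 5 erythroid genes summed to 2377 in it and to between 247 and 1435 elsewhere. The 6 skeletal muscle genes summed to 125 FPKM in CPIP replicate 2 and to between 7.93 and 37.6 in the other 8. The 5 of them tested were all higher in CPIP than in Sham, with a median log2 fold change of 1.13, and without CPIP replicate 2 it was 0.20 with 4 of the 5 higher. The 12 myelinating Schwann cell genes also varied, from 5054 in CPIP+EA replicate 1 to 12666 in CPIP replicate 1, whereas the 14 sensory neuron genes lay between 8825 and 10758. The neuron sum does not show single genes, of which 10 of 14 were lower in CPIP than in Sham (7 without CPIP replicate 2). For 7 of the 14 the CPIP and Sham libraries did not overlap, against 15.9% of all genes.

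**Figure D1:**
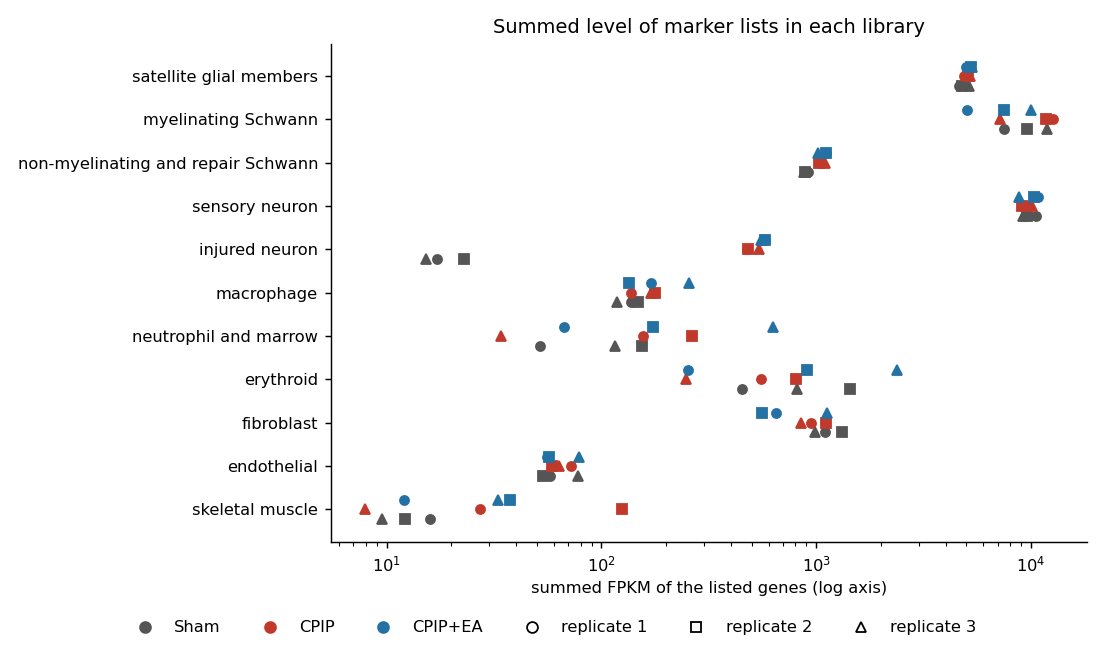
Summed FPKM of the genes of each marker list (rows) in each of the 9 libraries, on a log axis, coloured by group and shaped by replicate. The satellite glial genes lie between 4606 and 5297 in all libraries, a sum made up mostly of Apoe and S100b. The injured neuron genes separate Sham from the other groups, and CPIP+EA replicate 3 has the highest neutrophil and erythroid sums.

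The 9 genes spanned a wide range of levels. Apoe, which encodes the lipid carrier apolipoprotein E, had a mean of 3693 FPKM over the 9 libraries and ranked 3 among all genes of the table. S100b, a calcium-binding protein of glia that Schwann cells also make, followed at 1111 FPKM with a rank of 27. Glul, the glutamine synthetase that turns glutamate into glutamine, had 110 FPKM. Fabp7, the brain fatty acid binding protein, and Cdh19, a cadherin of the Schwann cell lineage, had 37.3 and 35.5 FPKM, and their library values overlapped. Gja1, the gap junction protein connexin 43, had 15.8 FPKM, and Gfap, the intermediate filament of reactive glia, had 10.1. Panx1, a membrane channel through which ATP leaves cells, had 7.72 FPKM. Slc1a3, the glutamate and aspartate transporter, was the lowest at 4.63. Library values also overlapped between Gja1 and Gfap and between Gfap and Panx1, while every other neighbouring pair in this order was separate in all 9 libraries.

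Variation between libraries did not follow the level. The coefficient of variation over the 9 libraries was 32.9% for Gfap, 30.4% for Fabp7 and 23.4% for Panx1. It was 16.7% for Cdh19, 12.2% for S100b, 10.96% for Gja1 and 8.93% for Glul. Apoe and Slc1a3, the most and least abundant of the 9, varied least, by 5.67 and 5.07%. These values include differences between groups: within Sham, CPIP and CPIP+EA, Panx1 varied by 6.12, 3.06 and 12.4%.

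**Figure D2:**
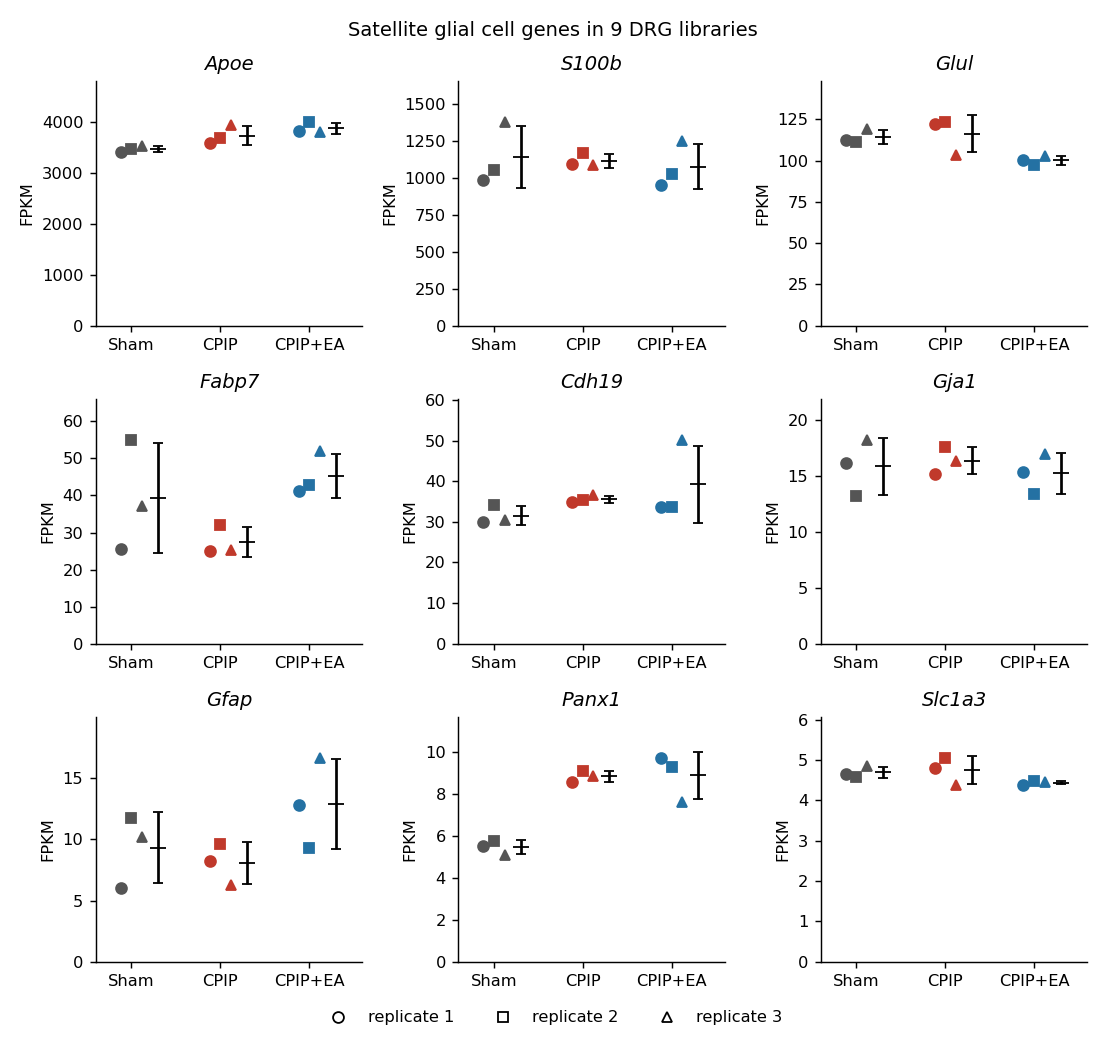
FPKM of each of the 9 satellite glial genes in each library, with the mean and SD (n = 3) to the right of each group, on axes that start at 0. Panx1 is separate between Sham (5.09 to 5.75) and both CPIP groups (7.63 to 9.71), while Fabp7 and Gfap spread widely within groups.

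The comparison of CPIP with Sham asks how the injury bore on these genes. None of the 9 was called (0 of 9, limma), where 0.355% of all genes tested were. Panx1 was the 1 gene of the 9 with an adjusted p under 0.05 at any fold, a level that 0.71% of all genes reached, and also the 1 gene with an unadjusted p under 0.05, which 8.66% of all genes had. The CPIP and Sham libraries did not overlap for Apoe, Cdh19 and Panx1, all higher in CPIP, against 15.9% of all genes (7.98% higher). The median log2 fold change of the 9 was 0.021 (-0.024 to 0.12 with each library left out), and that of all genes tested was -0.0064.

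Panx1 had 5.50, 5.75 and 5.09 FPKM in the Sham libraries. CPIP replicates 1 to 3 reached 8.56, 9.10 and 8.86, and those of CPIP+EA 9.71, 9.28 and 7.63. Every library of the CPIP and CPIP+EA groups was above every Sham library, and the ranges of CPIP and CPIP+EA overlapped. The log2 fold change from Sham to CPIP was 0.65 (standard error 0.098, 95% interval 0.43 to 0.87), and the adjusted p in limma was 0.0198, with alternatives spanning 0.00568 to 0.0935. From Sham to CPIP+EA it was also 0.65, and the adjusted p in limma was 0.0137, with alternatives spanning 0.00442 to 0.0656. Panx1 thus missed the threshold on its p and not on its fold, and it passed in both comparisons without CPIP+EA replicate 3, where the log2 fold changes were 0.65 and 0.75. Between CPIP+EA and CPIP its log2 fold change was -0.0014, with a 95% interval of -0.22 to 0.22.

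Panx1 is made by sensory neurons as well as by satellite glia, and the gene whose profile over the 9 libraries was most like it is an injury gene of neurons. Among 13913 genes with a mean of at least 1 FPKM this was Ecel1, a peptidase induced in damaged neurons, with a Pearson r of 0.987 on log2(FPKM + 0.5), the scale of every such likeness given here. Ankrd34b followed with 0.982 and Srxn1, the antioxidant enzyme sulfiredoxin, with 0.981. Ecel1 ranged from 0.91 to 1.10 FPKM in Sham, from 5.27 to 6.31 in CPIP and from 4.15 to 7.06 in CPIP+EA. A profile that separates Sham from the other groups is shared by many genes, and 172 of the 13913 had an r above 0.9 with Panx1. The 8 injured neuron genes, among them Atf3, Sprr1a and Ecel1, were all called higher in CPIP and in CPIP+EA than in Sham (8 of 8 in each, and at least 6 of 8 with any 1 library left out), where 0.355% and 0.483% of all genes tested were called. The list was chosen with earlier results of these data known, so its counts are a description. Its genes summed to between 15.2 and 23.0 FPKM in Sham, 476 and 543 with CPIP, and 555 and 578 with EA added. None of them was at 0 in all libraries, and Sprr1a was listed at 0 in Sham replicates 1 and 3. Their part in the difference of Panx1 was not tested.

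The bases before the Panx1 start site are shown because this gene had the largest difference from Sham of the 9. The RefSeq start in the rat assembly GRCr8 has the 250 bases before it at chr8:20171201-20171450 on the minus strand, printed 5′ to 3′ with a GC box in capitals.
Panx1: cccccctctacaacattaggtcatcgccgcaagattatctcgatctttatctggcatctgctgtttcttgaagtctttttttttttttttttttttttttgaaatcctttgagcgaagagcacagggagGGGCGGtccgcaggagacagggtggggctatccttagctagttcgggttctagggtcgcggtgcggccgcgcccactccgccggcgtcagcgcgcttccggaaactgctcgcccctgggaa
A GC box is the letters GGGCGG on either strand, which 30.5% of 33469 RefSeq windows of this length hold. The one before Panx1 begins 121 bases upstream of the start. Neither TATAAA nor TTCNNNGAA, which 12.9 and 7.67% of the windows hold on either strand, is in this window. These motifs were chosen after the sequences were read and are given as a description.

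Apoe and Cdh19 were separate between CPIP and Sham by small margins. Apoe had 3420, 3469 and 3525 FPKM in Sham and 3580, 3683 and 3935 in CPIP. Its log2 fold change was 0.10 (95% interval -0.19 to 0.40, limma adjusted p of 0.934). Cdh19 had 29.87, 34.17 and 30.54 FPKM in Sham and 34.86, 35.39 and 36.56 in CPIP, a log2 fold change of 0.18 (95% interval -0.14 to 0.49, limma adjusted p of 0.858). Both intervals include 0, and they leave out a 1.5-fold difference in either direction.

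The genes of glutamate handling and coupling, and S100b, were within a narrow interval of no difference between CPIP and Sham. Glul had 112.53, 111.35 and 119.16 FPKM in Sham and 122.22, 123.48 and 103.42 in CPIP, a log2 fold change of 0.021 (95% interval -0.15 to 0.19). The log2 fold change of Slc1a3 was 0.011 (95% interval -0.18 to 0.20) and that of Gja1 was 0.053 (95% interval -0.23 to 0.34). S100b had -0.016 (95% interval -0.36 to 0.32). For each of these 4 genes the groups overlapped, and the interval left out a 1.5-fold difference in either direction. Gfap had 6.06, 11.71 and 10.22 FPKM in Sham and 8.23, 9.65 and 6.26 in CPIP, so that every CPIP library lay within the Sham range. Its log2 fold change was -0.17 with a wide 95% interval, -0.79 to 0.44. It was 0.0075 without Sham replicate 2 and -0.44 without Sham replicate 1, the lowest Gfap library of the group.

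**Figure D3:**
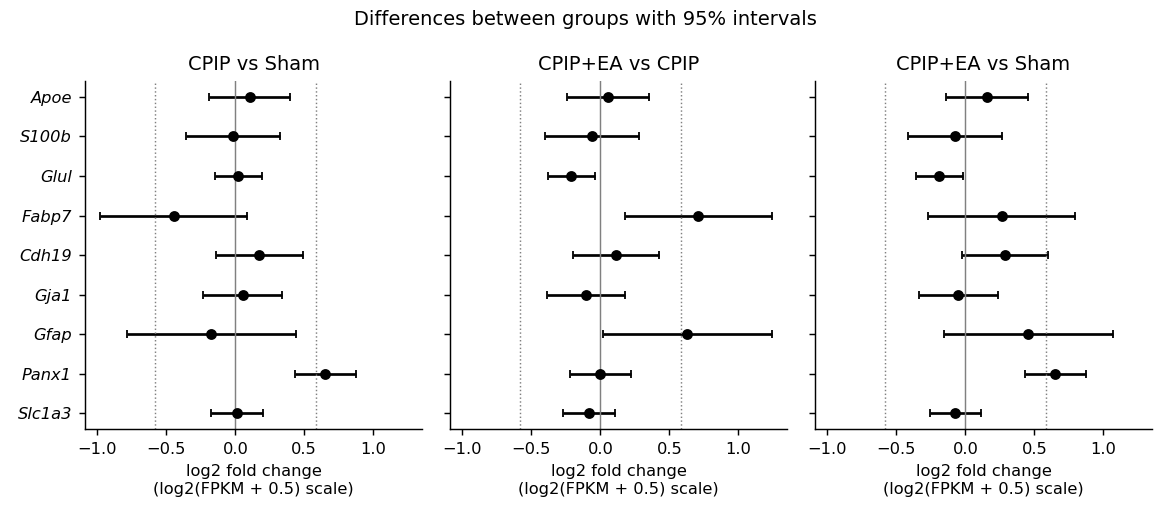
Log2 fold change of each of the 9 genes (rows, ordered by level) in the 3 comparisons, with 95% limma intervals, dotted lines marking a 1.5-fold difference either way. Panx1 lies at 0.65 against Sham with and without EA and at 0 between CPIP+EA and CPIP, while Fabp7 and Gfap have the widest intervals.

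The comparison of CPIP+EA with CPIP asks how EA treatment bore on the injured rats. None of the 9 genes was called (0 of 9, limma), and 0% of all genes tested were. An unadjusted p under 0.05 was reached by 3 of the 9, Fabp7 and Gfap higher and Glul lower in CPIP+EA, against 4.29% of all genes, and the adjusted p of each was 0.996. The libraries did not overlap for Fabp7 and Glul, against 8.23% of all genes. The median log2 fold change of the 9 was -0.0014 (-0.075 to 0.022 with each library left out), and that of all genes tested was 0.012.

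The level of Fabp7 was 25.12, 32.13 and 25.28 FPKM without EA (CPIP) and 41.13, 42.75 and 51.93 FPKM with EA. The Sham libraries, at 25.64, 55.02 and 37.11 FPKM, covered nearly the whole range of both other groups. The log2 fold change from CPIP to CPIP+EA was 0.71 (standard error 0.24, 95% interval 0.18 to 1.25), with an unadjusted limma p of 0.0148 and an adjusted p of 0.996. Without CPIP+EA replicate 3 it was 0.61, with an unadjusted limma p of 0.0502. From Sham to CPIP it was -0.45 (95% interval -0.98 to 0.088, limma adjusted p of 0.691), and -0.17 without Sham replicate 2, the highest library of Fabp7. Without Sham replicate 1, the lowest of that group, it was -0.72 with an adjusted p of 0.271 in limma.

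Gfap had 12.79, 9.25 and 16.65 FPKM in CPIP+EA, against 8.23, 9.65 and 6.26 in CPIP. The groups overlapped, since CPIP+EA replicate 2 was below CPIP replicate 2. The log2 fold change was 0.63 (standard error 0.27, 95% interval 0.017 to 1.24), with an unadjusted limma p of 0.0452 and an adjusted p of 0.996. Without CPIP+EA replicate 3, the highest library of Gfap and the one that stood apart, it was 0.43 with an unadjusted limma p of 0.157.

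Fabp7 and Gfap varied together. On log2(FPKM + 0.5), their Pearson r over the 9 libraries was 0.857, their Spearman rho was 0.767, and r was 0.815 on deviations from the group means. Leaving out the 2 libraries farthest from the median of Fabp7 on that scale, Sham replicate 2 and CPIP replicate 1, gave 0.928. On FPKM r was 0.825, and 0.799 without the 2 libraries farthest on that scale, Sham replicate 2 and CPIP+EA replicate 3. The highest of the 36 pairs among the 9 genes was Glul with Slc1a3, the enzyme and the transporter of glutamate clearance, with an r of 0.925 on the log2 scale and a rho of 0.833. For this pair r was 0.916 on deviations from the group means and 0.957 without CPIP+EA replicates 1 and 2, the farthest from the median of Glul on that scale. On FPKM r was 0.931, and 0.969 without CPIP replicate 2 and CPIP+EA replicate 2, the farthest in FPKM. On the log2 scale the median over the 36 pairs was 0.095, and the lowest was -0.71 for Glul with Apoe. Both pairs were picked for their height, the values of a pair share their libraries and scaling, and the correlations are given as a description.

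**Figure D4:**
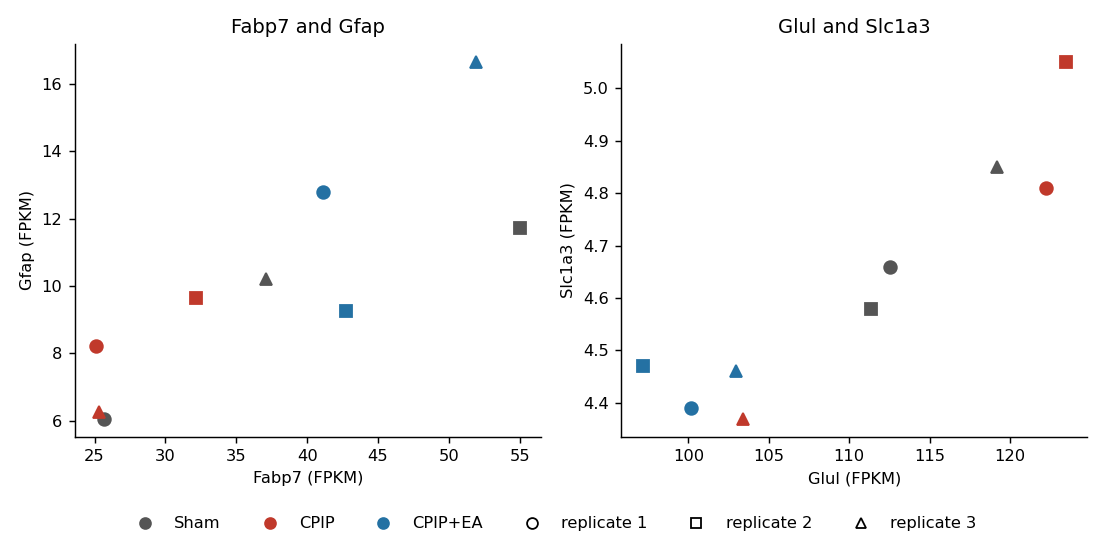
FPKM of Gfap against Fabp7 (left) and of Slc1a3 against Glul (right), 1 point per library, coloured by group and shaped by replicate, with axes that do not start at 0. Both pairs rise together, with a Pearson r on FPKM of 0.825 and 0.931 over the 9 libraries.

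The bases before the start sites of Fabp7 and Gfap are shown because their levels varied together. In GRCr8 the 250 bases before the RefSeq start are chr20:37669356-37669605 on the plus strand for Fabp7 and chr10:88361662-88361911 on the minus strand for Gfap. They are printed 5′ to 3′ with the letters AATAAA on the strand shown, and a GC box on either strand, in capitals.
Fabp7: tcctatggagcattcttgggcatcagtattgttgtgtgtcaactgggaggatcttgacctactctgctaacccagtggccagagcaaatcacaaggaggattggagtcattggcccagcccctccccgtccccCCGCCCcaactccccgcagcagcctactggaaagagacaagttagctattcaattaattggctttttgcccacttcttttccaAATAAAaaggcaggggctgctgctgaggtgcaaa
Gfap: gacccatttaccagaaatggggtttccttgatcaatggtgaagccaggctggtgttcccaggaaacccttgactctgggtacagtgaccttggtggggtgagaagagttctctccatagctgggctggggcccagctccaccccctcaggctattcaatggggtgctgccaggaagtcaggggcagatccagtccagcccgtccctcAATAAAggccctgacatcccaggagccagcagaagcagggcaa
AATAAA begins 34 bases upstream of the start in Fabp7 and 43 bases upstream in Gfap, and 11.3% of the windows hold it on this strand (19.5% on either). Fabp7 also holds a GC box on the other strand, 117 bases upstream, and Gfap holds none. The letters AATAAA are not particular to this pair: on the strand shown they are also in the windows of all 3 Slc1a3 starts and in 1 of 2 of Glul, and on the other strand in that of Cdh19. The capitals do not overlap, and neither window holds TATAAA or TTCNNNGAA.

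Glul was lower in the CPIP+EA libraries by a small amount that did not pass once adjusted. It had 100.17, 97.16 and 102.99 FPKM in CPIP+EA, each below the 3 CPIP libraries (103.42 to 123.48) and below the 3 Sham libraries (111.35 to 119.16). The log2 fold change from CPIP was -0.21 (standard error 0.075, 95% interval -0.38 to -0.042), with an unadjusted limma p of 0.0199 and an adjusted p of 0.996. With each library left out it lay between -0.29 and -0.17, and the unadjusted limma p was 0.0776 without CPIP replicate 1. CPIP replicate 3, at 103.42 FPKM, lay close to the CPIP+EA libraries. For Slc1a3, its partner in glutamate clearance, the CPIP libraries (4.81, 5.05 and 4.37 FPKM) overlapped those of CPIP+EA (4.39, 4.47 and 4.46). Its log2 fold change was -0.084 (95% interval -0.27 to 0.10), and -0.14 to -0.042 with each library left out.

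The other genes overlapped between CPIP+EA and CPIP. Cdh19 had 33.76, 33.77 and 50.18 FPKM in CPIP+EA, and its log2 fold change of 0.11 was -0.075 without replicate 3. The gene most like Cdh19 over the 9 libraries was Tyrobp, a signalling adaptor of macrophages and other myeloid cells, with a Pearson r of 0.990, and CPIP+EA replicate 3 was the highest library of both. The 10 macrophage genes summed to 257 FPKM in that library and to between 118 and 178 in the others, and their part in the Cdh19 value was not tested. S100b had 952.58, 1027.49 and 1248.66 FPKM in CPIP+EA and 1091.20, 1169.41 and 1087.35 in CPIP, a log2 fold change of -0.061. Gja1 had a log2 fold change of -0.10 (-0.18 to -0.016 with each library left out). Apoe had one of 0.055, which was 0.17 after quantile normalization, and the 95% intervals of S100b, Gja1 and Apoe left out a 1.5-fold difference in either direction.

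Markers of other cells in the ganglion are given beside these values. All 12 myelinating Schwann cell genes were lower with EA (median log2 fold change -0.43 relative to CPIP), and their sums overlapped, 7168 to 12666 FPKM in CPIP and 5054 to 10052 in CPIP+EA. The median was -0.69 without CPIP+EA replicate 3, and without CPIP+EA replicate 1 it was -0.18 with 10 of the 12 lower. All 8 fibroblast genes were lower, with a median of -0.29 (-0.55 without CPIP+EA replicate 3) and sums of 846 to 1116 and 560 to 1117. With CPIP+EA replicate 2 left out, 7 of the 8 were lower and the median was -0.15. The 7 neutrophil and marrow genes tested had a median of 0.72 and were all above CPIP, which rested on single libraries. Without CPIP+EA replicate 3, 3 of the 7 were higher (median -0.021), and without CPIP replicate 3, 4 of the 7 were (median 0.016). The 8 genes of that list summed to 67.3, 174 and 629 FPKM in the CPIP+EA libraries and to 157, 265 and 33.98 in those of CPIP. All 5 erythroid genes were higher with EA than in CPIP (median 0.76). Without CPIP+EA replicate 3, 2 of the 5 were (median -0.0067). From Sham to CPIP all 5 were lower (median -0.69), and 2 of the 5 without Sham replicate 2 (median 0.0049). None of the 12, 8 and 7 genes was called, nor was any of the 14 sensory neuron, 10 macrophage, 5 erythroid, 7 endothelial and 5 skeletal muscle genes tested in any of the 3 comparisons. No gene of the myelinating Schwann and fibroblast lists was at 0 in any library, and their part in the values of Fabp7, Gfap and Glul was not tested.

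The comparison of CPIP+EA with Sham shares the Sham libraries with the first comparison and the CPIP+EA libraries with the second. None of the 9 genes was called (0 of 9, limma), against 0.483% of all genes. Panx1 was again the 1 gene with an adjusted p under 0.05, against 1.31% of all genes. Panx1 (higher) and Glul (lower) had an unadjusted p under 0.05, against 12.2%. The libraries did not overlap for Glul and Slc1a3, lower in CPIP+EA, and for Apoe and Panx1, higher, against 16.2% of all genes. The median log2 fold change of the 9 was 0.16, and that of all genes tested was 0.0014. The median of the 9 rested on single libraries, since it was -0.0052 with 4 of 9 positive when Sham replicate 1 was left out, and 0.10 when CPIP+EA replicate 3 was. Fabp7 had a log2 fold change of 0.26, which was -0.0052 without Sham replicate 1 and 0.54 without Sham replicate 2. Gfap had 0.46, which was 0.19 without Sham replicate 1, 0.26 without CPIP+EA replicate 3 and 0.67 without CPIP+EA replicate 2. Cdh19 had 0.29, and 0.10 without CPIP+EA replicate 3. Glul had a log2 fold change of -0.19 (adjusted p 0.343, limma), and -0.16 with an unadjusted limma p of 0.0970 without Sham replicate 3. Markers of other cells moved in this comparison too: all 8 fibroblast genes were lower, 5 of them at an unadjusted limma p under 0.05 (5.63% of all genes were lower), and 0 were called. Their median was -0.54, which was -0.33 when CPIP+EA replicate 2 was left out and -0.81 when replicate 3 of that group was. Of the 12 myelinating Schwann cell genes 11 were lower, with a median of -0.33 that was -0.080 when CPIP+EA replicate 1 was left out and -0.58 when its replicate 3 was. All 7 neutrophil and marrow genes tested were higher (median 0.91). Without CPIP+EA replicate 3, 4 of the 7 were (median 0.074). Of the 10 macrophage genes 8 were higher (median 0.37, and 0.13 without that library), as were all 5 skeletal muscle genes tested (median 0.83). The part of these markers in the values of the 9 genes was not tested. Slc1a3 had a log2 fold change of -0.073, with 4.66, 4.58 and 4.85 FPKM in Sham. Apoe had 3822, 4006 and 3797 FPKM in CPIP+EA, which was a log2 fold change of 0.16 from Sham (adjusted p 0.693, limma), and 0.27 after quantile normalization.

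The wider families and pathways of the 9 genes were read from lists that leave out the 9. Of 20 other satellite glial and astroglial genes, 0 were called in any of the 3 comparisons. Without adjustment, a limma p under 0.05 was found for 0 of them between CPIP and Sham and for 1 in each of the others. The shares of all genes with such a p, against which this and the following counts stand, were 8.66% between CPIP and Sham, 4.29% between CPIP+EA and CPIP and 12.2% between CPIP+EA and Sham. The median log2 fold change of the 20 was 0.027 between CPIP and Sham, 0.0084 between CPIP+EA and CPIP and 0.0037 between CPIP+EA and Sham. Levels within the list spanned a wide range. Kcnj10, the potassium channel of satellite glia, had 34.8 ± 1.70 FPKM in Sham (SD, n = 3), whereas Slc1a2 and Aqp4, prominent in astrocytes, had 0.407 ± 0.114 and 0.233 ± 0.0289 (SD, n = 3). Kcnj10 had 29.4 ± 0.728 with CPIP and 33.8 ± 5.90 with EA added (SD, n = 3). From Sham to CPIP this was a log2 fold change of -0.24 (adjusted p 0.627, limma). These 3 genes were named after their values were seen. Lgi4, a secreted glial protein needed for myelination, had the smallest p of the list over the comparisons of CPIP with Sham and of CPIP+EA with CPIP. Its log2 fold change between CPIP+EA and CPIP was 0.31 (adjusted p 0.996, limma), and 0.17 without CPIP+EA replicate 3. Sox10, the transcription factor of peripheral glia, had 43.8 ± 1.21, 46.6 ± 4.60 and 41.5 ± 1.65 FPKM in Sham, CPIP and CPIP+EA (SD, n = 3).

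Families of channels and transporters gave the same count. Of the other 11 connexins and pannexins, 0 were called in any comparison, with 1, 1 and 0 at an unadjusted limma p under 0.05 in the comparisons in that order, beside the shares of all genes above. Gjd2, the connexin 36 of neurons, had 1.14 ± 0.0624, 0.80 ± 0.231 and 1.30 ± 0.197 FPKM in Sham, CPIP and CPIP+EA (SD, n = 3). The log2 fold changes were -0.35 and 0.48 in the first pair of comparisons, which share the CPIP libraries, and the limma adjusted p values were 0.553 and 0.996. Of 15 other genes of glutamate and glutamine handling, 0 were called, with 1, 1 and 3 at an unadjusted limma p under 0.05 in the 3 comparisons (8.66, 4.29 and 12.2% of all genes). The mitochondrial aminotransferase Got2 had 125 ± 11.6 FPKM in Sham and 149 ± 7.52 in CPIP (SD, n = 3), a log2 fold change of 0.26 (adjusted p 0.426, limma). The vesicular glutamate transporter of neurons, Slc17a6, had 0.15 and 0.16 in the comparisons of CPIP with Sham and of CPIP+EA with CPIP.

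Lipid genes and the families of Fabp7 and S100b held larger differences that fell short of the threshold. Of 20 other entries for 19 genes of lipid transport and sterol synthesis, 0 were called. Apoc1 has 2 identifiers, between which reads could be split, so its values are uncertain and are not used. The counts at an unadjusted limma p under 0.05 held no Apoc1 entry. They were 4 higher between CPIP and Sham (4.61% of all genes were), 5 lower between CPIP+EA and CPIP (2.07%), and 2 higher and 2 lower between CPIP+EA and Sham (6.59 and 5.63%). Abca1, the pump that loads cholesterol onto apolipoproteins, had a log2 fold change from Sham to CPIP of 0.50 (adjusted p 0.121, limma). Of 7 other fatty acid binding proteins, 0 were called, with 1, 1 and 2 at an unadjusted limma p under 0.05 in the 3 comparisons (8.66, 4.29 and 12.2% of all genes). Fabp5 was far above Fabp7 in level, with 331 ± 12.8, 472 ± 43.7 and 473 ± 45.8 FPKM in Sham, CPIP and CPIP+EA (SD, n = 3), a log2 fold change from Sham to CPIP of 0.50 (adjusted p 0.0566, limma). Fabp1, the liver form, was listed at 0 in all 3 Sham libraries, at 0.12, 0.13 and 0 FPKM in the CPIP libraries, and at 0.49, 0.62 and 1.37 with EA. Of 11 genes tested of the S100 list, 0 were called. They include S100pbp, a binding partner that is no S100 gene, and leave S100a8 and S100a9 to the neutrophil and marrow list. The counts were the same without S100pbp, with 2, 1 and 1 at an unadjusted limma p under 0.05, beside the same shares of all genes. S100a11 had 286 ± 10.9, 393 ± 33.7 and 421 ± 12.95 FPKM in Sham, CPIP and CPIP+EA (SD, n = 3), a log2 fold change from Sham to CPIP of 0.45 (adjusted p 0.0391, limma). S100a3 had -0.79 between CPIP+EA and CPIP (adjusted p 0.996, limma).

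Genes that rose with CPIP were found among those of glial reactivity. Of 22 genes of this list, 3 rose between CPIP and Sham, where 0.355% of all genes tested were called, and 3 rose between CPIP+EA and Sham, where 0.483% were. Between CPIP+EA and CPIP 0 passed, beside 0% of all genes. With any 1 library left out, 2 or 3 of the 22 passed in each comparison with Sham, and the gene lost was Cdkn1a. Without adjustment, 8 genes had a limma p under 0.05 between CPIP and Sham, all higher, against 8.66% of all genes. Between CPIP+EA and Sham 7 higher and 1 lower had one (12.2% of all genes), and 1 higher and 1 lower when EA was compared with CPIP (4.29%). Csf1, the macrophage growth factor that injured sensory neurons also release, had 6.41, 6.46 and 6.35 FPKM in Sham, rising to 13.30, 14.04 and 13.70 with CPIP, and stood at 13.10, 12.56 and 12.04 with EA. This was a log2 fold change of 1.04 from Sham to CPIP (limma adjusted p of 7.13e-05), and no Sham library came near the others. Serpina3n, a secreted protease inhibitor, rose by 4.93 on the log2 scale (limma adjusted p of 0.000391). The cell cycle inhibitor Cdkn1a rose from 3.75 ± 0.174 to 10.1 ± 1.41 FPKM (SD, n = 3), a log2 fold change of 1.31 (limma adjusted p of 0.00257). These 3 genes are also induced in injured neurons, and the injured neuron genes summed to at most 23.0 FPKM in Sham and at least 476 in the other groups. Of the 10 macrophage genes, 8 were higher in CPIP than in Sham, with a median log2 fold change of 0.28 (0.19 to 0.39 with each library left out), 0 called and 3 whose libraries did not overlap, all higher, against 7.98% of all genes. They summed to 118 to 148 FPKM in Sham, 138 to 178 in CPIP and 134 to 257 in CPIP+EA, and none was at 0 in any library. The part of neurons and of macrophages in the values of the glial reactivity list was not tested.

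**Figure D5:**
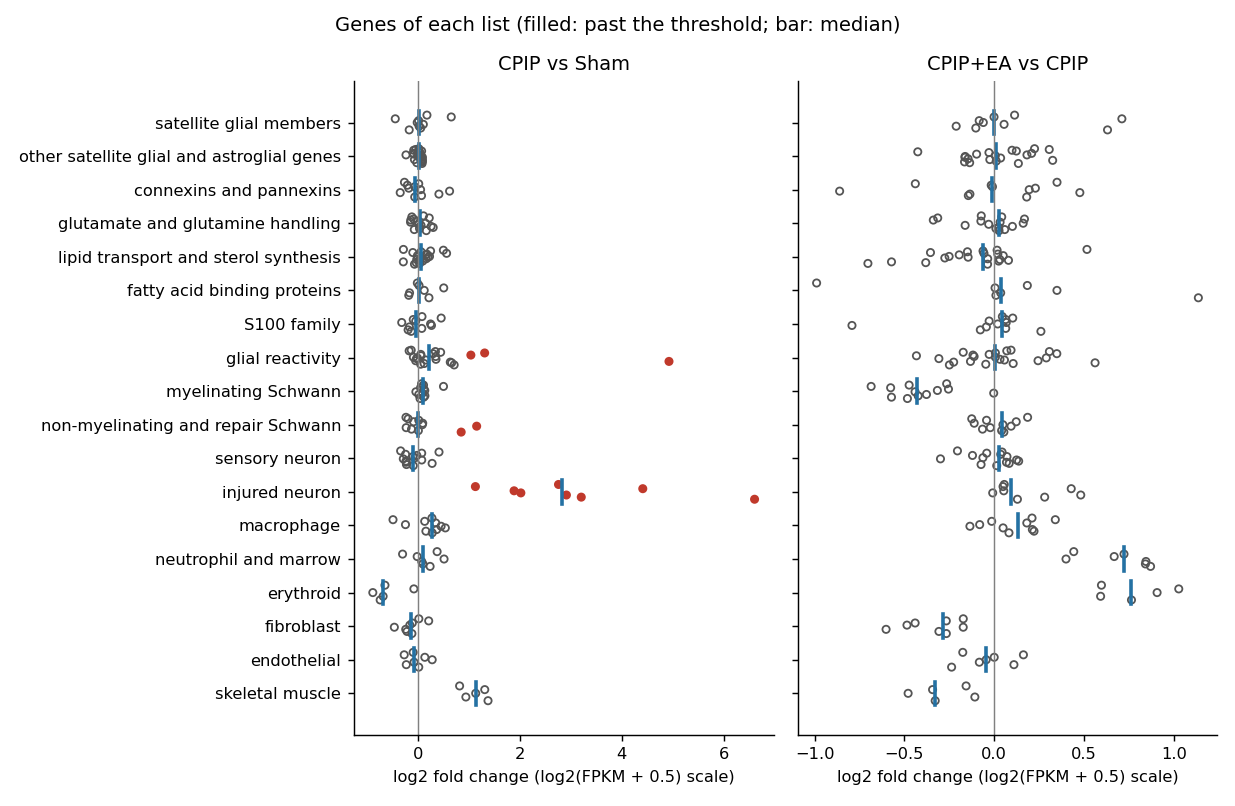
Log2 fold change of each gene (points) of each list (rows) for CPIP against Sham (left) and CPIP+EA against CPIP (right), with the list's median as a bar and genes past the threshold filled, on axes of different range. Filled points occur between CPIP and Sham in the glial reactivity, repair Schwann cell and injured neuron lists, and none occurs between CPIP+EA and CPIP.

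Genes of the Schwann cell lineage were counted by kind between CPIP and Sham. Of 12 myelinating Schwann cell genes 0 were called. Of 11 non-myelinating and repair Schwann cell genes tested 2 rose, where 0.355% of all genes were called: Gap43, a growth protein that regenerating neurons also make, by 1.15 on the log2 scale (limma adjusted p of 0.00224), and Jun, the transcription factor of the repair state and of injured neurons, by 0.85 (limma adjusted p of 0.00694). With 1 library fewer in the fit, Gap43 passed in 4 of 9 cases and Jun in 1, while the log2 fold changes stayed between 1.06 and 1.22 for Gap43 and between 0.74 and 0.93 for Jun. Jun also missed the threshold with no filter, on a TPM scale, after median centring, without the trend and with only the 2 groups compared, with a limma adjusted p of at most 0.0209. The median log2 fold changes of the 2 lists, which hold other genes of the lineage that shares S100b and Cdh19, were 0.097 and 0.0066. Neither kept its sign with each library left out. The myelinating median lay between -0.051 without Sham replicate 1, with 9 of the 12 lower, and 0.30 without CPIP replicate 3, with 12 of 12 higher. The repair list's median lay between -0.056 without Sham replicate 3 and 0.071 without Sham replicate 1.

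The genes most like each of the remaining members over the 9 libraries were as follows. For Fabp7 they were Dnmt1, the maintenance DNA methyltransferase (Pearson r of 0.964), Tubd1 and Sfxn2. For Glul they were Myh14 (0.977), Crtc3 and Fat1. Apoe was nearest to Tmem106a (0.976), Exoc5 and Cyth2. Between 6 and 65 genes of the 13913 had an r above 0.9 with each of the members other than Panx1, and likeness over 9 libraries is a description. Gja1 was nearest to Osr1, a transcription factor of mesenchyme (0.945), Bmp4 and Ccdc190. For Gfap it was Mfsd8 (0.929), Kdm3a and Fra10ac1, for S100b RGD1560248 (0.975), Skap2 and Eva1b, and for Slc1a3 LOC689574 (0.977), LOC689130 and Zfp174. After Tyrobp, Cdh19 was nearest to Psmb9, a subunit of the immunoproteasome (0.976), and Usp1, and CPIP+EA replicate 3 held the highest value of Psmb9, 17.71 FPKM against at most 10.35 in CPIP. None of the nearest 3 genes of any member was another of the 9.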

How the data were processed

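Groups and replicate numbers came from the sample labels. The authors cleaned the raw reads with SOAPnuke and deposited, for every gene in every library, an FPKM rounded to 2 decimals. The aligner, genome build and annotation are not given in the sources used here. Columns of the authors' own comparisons (ratios and significance values) share this table and were left aside. Read counts are not in it, so the depth behind an FPKM value is unknown, and precision rests on there being 3 libraries per group.

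A model on log2(FPKM + 0.5) was fitted with limma 3.58.1 (R 4.3.3) to all 9 libraries at once, with no covariate and eBayes with a trend, after genes whose mean FPKM was below 0.1 had been dropped. Two-sided p-values were corrected by Benjamini-Hochberg across every gene tested. The threshold follows the study's, whose methods name no test for it. The study reported far more genes past it than this fit called, both for CPIP against Sham and for CPIP+EA against CPIP. The fit was tested on simulated data with changes larger than those of the 9 genes, so that check does not bear on them. Python 3.11.15 with numpy 2.4.6, pandas 2.3.3 and scipy 1.17.1 made the tables, and matplotlib 3.10.9 the plots.

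The 9 genes, the lists, the tests and the alternatives were chosen with earlier results of these data known. The text names all 9 genes, every called gene of each pathway list, or the 2 of smallest p over the comparisons of CPIP with Sham and CPIP+EA with CPIP where none was called, and the 3 genes with the highest Pearson r to each of the 9. Some genes that this rule names are not reported here. Marker lists of other cell types are given by counts and sums. Of the gene identifiers, 18746 (91.8%) matched the RefSeq gene list of GRCr8, and all 9 genes had an entry in its table of start sites. The sequences are from RefSeq, and no coordinate is from the authors' build.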

Additional observations from a re-analysis of the deposited data

How the results depend on the processing

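The fold changes and calls were recomputed without 1 library at a time, with the replicate number as a block, with the 2 compared groups alone, under other thresholds and limma settings, after median centring, quantile normalization or scaling to TPM, with pseudocounts of 0.1 and 1, and with the filter removed or raised to 1 FPKM. Levels and nearest genes were not, and pair correlations only as stated. Of 540 fold changes of the 9 genes, 518 kept their direction and side of the threshold, 20 changed sign and 2 passed the threshold. With an adjusted p under 0.05 at any fold, 1 of the 9 genes was called in CPIP and 1 in CPIP+EA relative to Sham, in place of 0. With each library left out, between 0 and 1 were called in both comparisons, and the 1 was Panx1 without CPIP+EA replicate 3. All sign changes were of genes not called. Between CPIP+EA and CPIP, Panx1 had a log2 fold change of 0.0027 with quantile normalization and 0.010 with median centring. With each library left out, it lay between -0.066 and 0.098, S100b between -0.17 and 0.022 and Cdh19 between -0.075 and 0.21. Between CPIP and Sham the ranges were -0.024 to 0.10 for Glul, -0.069 to 0.16 for Gja1, -0.031 to 0.063 for Slc1a3, -0.44 to 0.0075 for Gfap and -0.11 to 0.13 for S100b. Between CPIP+EA and Sham they were -0.0052 to 0.54 for Fabp7, -0.17 to 0.054 for Gja1 and -0.19 to 0.068 for S100b.

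Same-numbered libraries of different groups had deviations from the group means that correlated between -0.24 and 0.30. Differently numbered ones lay between -0.22 and 0.28, a like range. The labels use the numbers only as names, so these were not taken to pair the libraries. With the replicate number as a block, 0 of the 9 genes were called, and Panx1 had a limma adjusted p of 0.0458 in CPIP and 0.0359 in CPIP+EA, each relative to Sham. Among the other genes named, the block also ended the calls of Cdkn1a, Gap43 and Jun, with limma adjusted p-values of at most 0.0204 in CPIP relative to Sham. In the injured neuron list it ended those of Sox11 and Nts in both comparisons with Sham. Over all genes, the block gave 26 in place of 61 calls for CPIP and 42 in place of 83 for CPIP+EA, each relative to Sham. With an adjusted p under 0.05 at any fold there were 122 and 226. With each library left out, the counts were 30 (without Sham replicate 2 or CPIP replicate 3) to 62 between CPIP and Sham, 35 (without CPIP+EA replicate 2) to 82 between CPIP+EA and Sham, and 0 to 2 when EA was compared with CPIP. With only the 2 groups compared, CPIP+EA had 51 calls against Sham and 1 against CPIP. The causes were not tested.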
